A study of Mus musculus with 47 samples.

Results

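The myelin response of E4 microglia was taken as the comparison of E4 cultures given myelin with untreated E4 cultures, which are 10 of the 47 libraries of the series. E4 mice, of the C57BL/6 strain and a Taconic line, have both alleles of the mouse Apoe gene replaced so that they encode human APOE ε4, the form that raises the risk of Alzheimer's disease. Primary microglia from their forebrain were either challenged with myelin for 3 h and collected at 24 h (5 libraries) or left without myelin over the same 24 h (5 libraries). All cultures grew in DMEM with serum and antibiotics. Comparison cultures were treated the same way and came from mice with human APOE ε3 in place of Apoe (E3, 4 libraries with and 4 without myelin), mice labelled minus for both Apoe alleles (KO, 5 and 5) and wild-type mice (WT, 5 and 5). The remaining 9 libraries, from mice with 1 plus and 1 minus Apoe allele (Het), enter only alternative fits. Whether the libraries of a group stem from different animals or cultures is not in the labels, and the p-values therefore measure a spread that may be technical. Human APOE is not a row of the table, so the level of the transcript that replaces mouse Apoe in these cells was not measured here.

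Microglia clear myelin debris by phagocytosis and digest it in lysosomes, acidic organelles filled with hydrolases. Myelin is rich in cholesterol and sphingolipids, and cholesterol cannot be broken down by the cell. It is stored as esters in droplets or exported by ABC transporters onto apolipoprotein E. Oxysterols activate the LXR receptors, which switch on the exporters, while cholesterol in the endoplasmic reticulum holds back SREBP2, the factor that drives sterol synthesis and lipoprotein uptake.

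Levels are given in scaled TPM, the deposited TPM (transcript abundance relative to the library total) after rescaling to the nuclear protein-coding genes and a trimmed-mean library factor. Values in a series follow replicates 1 to 5. Log2 fold changes (± SE) are myelin over untreated on the scale of log2(scaled TPM + 1). A gene is said to have risen or fallen where the adjusted p of limma, corrected over the 9410 genes tested, was under 0.05. With that rule 667 genes rose (7.09% of those tested) and 523 fell (5.56%). The median change of the genes that rose was 0.53, with 33 past 1, and that of the genes that fell was -0.47, with 22 beyond -1. The median over all genes tested was 0.00. Levels did not overlap between the groups in 571 genes that were higher after myelin (6.07%) and 415 that were lower (4.41%).

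The libraries held much non-coding RNA. A single entry outside the coding genes, Gm23935, took 72.7 to 81.8% of the TPM after myelin and 81.6 to 91.5% untreated. Nuclear protein-coding genes took 18.6 ± 3.39% of the TPM after myelin and 12.1 ± 3.24% without it (SD, n = 5 each), a difference beyond the spread (two-sided exact permutation p = 0.0238, where the smallest possible is 0.00794). This share therefore moved with the treatment, and its part in the gene results was not tested beyond a fit with the share as a covariate, which called 728 genes, 356 of them as before. E4 untreated replicate 1 stood apart, with a coding share of 7.16% and 23583 scaled TPM of Lars2, a mitochondrial leucyl-tRNA synthetase that stayed at or under 13042 in the other 9 libraries. Gm23935 was also highest there (91.5%), and Lars2 was lowest (5324) in E4 myelin replicate 4, where Gm23935 was lowest (72.7%). Whether the Lars2 reads stand for the transcript of the enzyme was not tested. Without E4 untreated replicate 1, 990 genes were called. The count ranged from 570 without E4 myelin replicate 3 to 1435 without E4 untreated replicate 5, with 583 and 740 when untreated replicate 3 or untreated replicate 2 of E4 was left out. Trem2, C1qa and the other markers of microglia summed to 20811 to 25427 scaled TPM after myelin (median 25004) and to 20575 to 26793 untreated (median 25053). Of the 15 markers, 1 rose and 4 fell among 14 tested. Astrocyte markers summed to 1734 to 3398 scaled TPM after myelin (median 2515) and 2352 to 3610 untreated (median 2957). Fibroblast and pericyte markers summed to 1189 to 1375 after myelin (median 1248) and 1200 to 1884 untreated (median 1632). Markers of neurons summed to 55.5 to 66.5 after myelin and 68.8 to 87.2 untreated, and 2 of 3 tested fell, Stmn2 (-0.44) and Tubb3 (-0.38), a count of 0 without E4 myelin replicate 3 or E4 untreated replicate 3 and of 1 without any of 6 other libraries. Oligodendrocyte, endothelial, border macrophage and neutrophil or lymphocyte markers had medians of 195, 23.8, 1494 and 7.40 after myelin and 187, 29.4, 1672 and 9.04 untreated. Of all the marker sums only those of neurons and of endothelial cells did not overlap. The endothelial sums were 22.6 to 25.8 after myelin and 25.9 to 32.3 untreated. The 1 endothelial marker that passed the level filter had a log2 fold change of 0.24, in the other direction. No marker of any of these lists was at 0 in all 10 libraries. Of the 4 oligodendrocyte, 1 endothelial and 1 neutrophil or lymphocyte markers that were tested, limma called 0, with 0 at an unadjusted p under 0.05. In such bulk samples fewer cells of a type and less RNA per cell cannot be told apart.

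**Figure D1:**
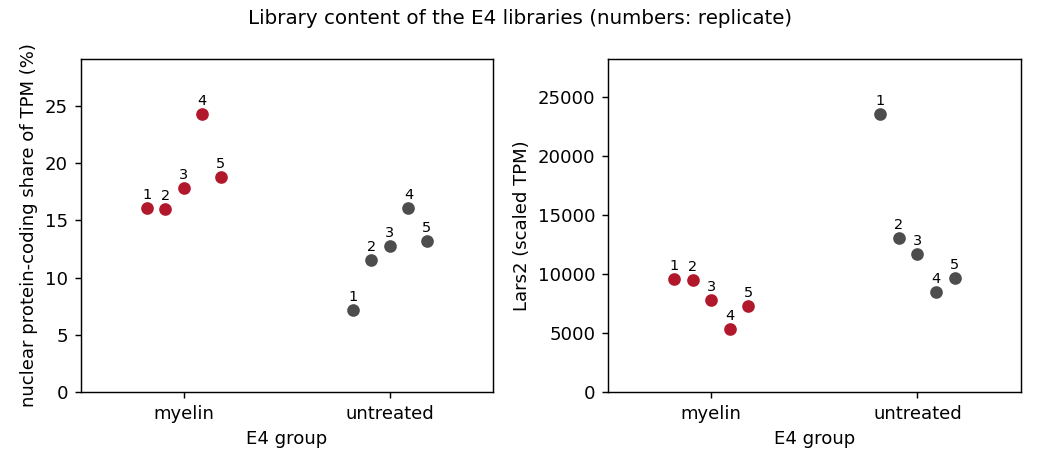
Left, share of the TPM of each E4 library that lies on nuclear protein-coding genes (%); right, level of Lars2 (scaled TPM); each point is a library, numbered by replicate, with the myelin group left of the untreated group. Untreated replicate 1 has the lowest coding share (7.16%) and the highest Lars2 (23583 scaled TPM).

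Of 18 tested genes of LXR sensing and cholesterol export 6 rose, among them the exporters Abcg1 and Abca1, and 1 fell (list median 0.17). Abcg1 (chr17:31057675-31117988 in mm10, ENSMUSG00000024030.6), which loads cholesterol onto lipoproteins, had 44.2, 47.3, 46.7, 35.1 and 43.9 scaled TPM after myelin, against 6.64, 9.43, 8.17, 6.32 and 8.64 untreated. Each myelin library was above each untreated one, the ratio of means was 5.54, and the log2 fold change of 2.34 ± 0.12 was the largest of all genes tested (limma adjusted p = 3.38e-07). Mylip, a ubiquitin ligase that limits lipoprotein uptake, averaged 28.9 ± 1.89 scaled TPM after myelin and 15.9 ± 2.52 untreated (SD, n = 5 each; 0.83 ± 0.11, limma adjusted p = 9.62e-04). Abca1, the exporter that acts on lipid-poor apolipoproteins, had 78.3, 80.4, 75.5, 72.3 and 97.9 scaled TPM after myelin and 40.1, 53.7, 54.7, 59.9 and 56.9 untreated. It rose by 0.60 ± 0.11 without overlap (limma adjusted p = 0.00563). Smpdl3a and Pltp, a phosphodiesterase and a phospholipid carrier, rose by 0.48 ± 0.10 and 0.27 ± 0.08. Abca1 (0.38) and Smpdl3a (0.29) were not called with the coding share as a covariate. The transporter Abca9 fell (-0.47 ± 0.14), and that call was lost on leaving out any of 8 of the 10 libraries. The receptors themselves, Nr1h3 (-0.05) and Nr1h2 (0.00), were not called, nor was Srebf1 (-0.24), an LXR target that drives fatty acid synthesis.

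The sixth gene that rose in that list was Apoe. Reads assigned to mouse Apoe came to 305, 726, 547, 338 and 366 scaled TPM after myelin and to 142, 137, 154, 188 and 221 untreated. The groups did not overlap (1.38 ± 0.22, limma adjusted p = 0.00232), and replicate 2 was highest. These levels are small beside those of WT cells, which held 68720 ± 10546 scaled TPM after myelin and 55629 ± 6737 untreated (SD, n = 5 each). KO cells held 74.3 ± 8.65 after myelin and 74.1 ± 6.75 untreated (SD, n = 5 each). E3 cells, in which Apoe is also replaced, held 153 ± 54.6 after myelin and 102 ± 10.7 untreated (SD, n = 4 each). The difference between the E4 and E3 responses (0.86 ± 0.27) was not called (limma adjusted p = 0.596). What part of the E4 reads came from human APOE transcripts was not tested.

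Genes of sterol synthesis and uptake fell. Fdps, which makes farnesyl diphosphate in the mevalonate pathway, had 114, 107, 99.2, 93.4 and 119 scaled TPM after myelin, against 224, 180, 199, 174 and 173 untreated. Mvk, the mevalonate kinase, had 24.9, 23.7, 22.8, 20.6 and 27.7 after myelin, against 46.5, 36.8, 41.3, 35.3 and 37.6 untreated. Neither gene's groups overlapped. The log2 fold changes were -0.83 ± 0.09 for Fdps and -0.70 ± 0.10 for Mvk (limma adjusted p = 3.77e-04 and 0.00139). The decarboxylase Mvd (-0.65 ± 0.09) of the same pathway fell, as did Srebf2 (-0.56 ± 0.09), which encodes SREBP2, Cyp51 (-0.59 ± 0.12) of the lanosterol branch, and Insig1 (-0.45 ± 0.14), which retains SREBP in the endoplasmic reticulum. Of 23 tested members 15 fell and 0 rose, and the list median was -0.45. The synthase Hmgcs1 (-0.26 ± 0.14) and the isomerase Idi1 (-0.36 ± 0.18) were not called. The count that fell was 9 without E4 myelin replicate 3 or E4 untreated replicate 3, and 8 with libraries scaled to the coding total alone. Of 12 tested genes of fatty acid synthesis 1 fell, the elongase Elovl6 (-0.47 ± 0.14, not called on leaving out any of 8 of the 10 libraries), and 0 rose. The count that fell was 6 with the coding share as a covariate. Fasn (-0.39 ± 0.12) and Scd1 (-0.36 ± 0.15) were not called.

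**Figure D2:**
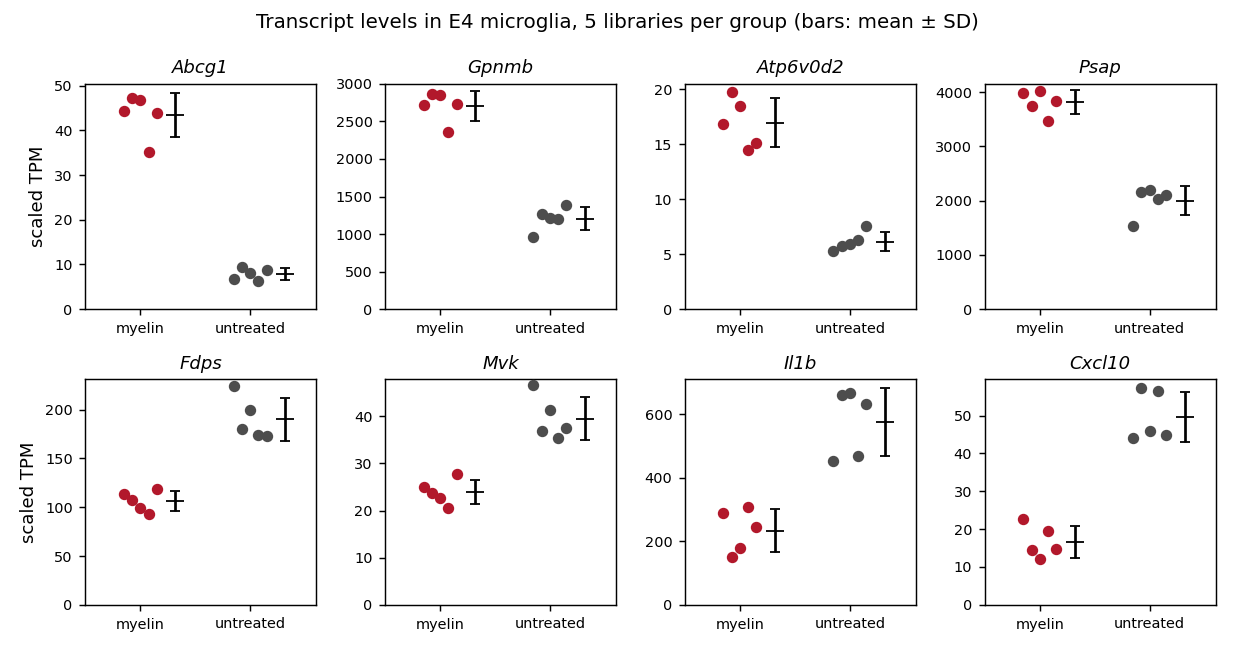
Level of 8 genes (y axis, scaled TPM, from 0) in each E4 library, with the 5 myelin libraries left of the 5 untreated ones; bars show the mean ± SD. Abcg1, Gpnmb, Atp6v0d2 and Psap lie higher after myelin and Fdps, Mvk, Il1b and Cxcl10 lower, in each case with no overlap between the groups.

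Lysosomal genes rose across pump, proteases, lipid and glycan hydrolases and membrane proteins. Gpnmb (chr6:49036546-49070929), a glycoprotein of the lysosome and of lipid-laden macrophages, had 2716, 2859, 2851, 2364 and 2734 scaled TPM after myelin, against 960, 1262, 1209, 1199 and 1388 untreated. Psap, whose product is cut into the saposins that open sphingolipids to hydrolases, had 3983, 3739, 4025, 3474 and 3844 after myelin, against 1527, 2163, 2188, 2038 and 2097 untreated. Atp6v0d2, a subunit of the proton pump that acidifies lysosomes, had 16.8, 19.8, 18.5, 14.5 and 15.1 after myelin, against 5.24, 5.70, 5.91, 6.31 and 7.56 untreated. All 3 genes were higher in each myelin library than in any untreated one, with log2 fold changes of 1.17 ± 0.10, 0.94 ± 0.11 and 1.33 ± 0.12 in that order (limma adjusted p = 6.57e-05, 3.77e-04 and 6.57e-05).

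Of the 18 pump subunits and accessory proteins 9 rose and 0 fell (median 0.29), among them Atp6v1a (0.59 ± 0.10), Atp6v1c1 (0.51 ± 0.09) and Atp6v1b2 (0.45 ± 0.09). With the coding share as a covariate 8 rose and 1 fell, and Atp6v1c1 (0.27) and Atp6v1b2 (0.26) were not called. Of 11 cathepsins 5 rose and 0 fell (median 0.28). Ctsb, a cysteine protease, averaged 12946 ± 579 scaled TPM after myelin and 8324 ± 1089 untreated, and Ctsd, an aspartic protease, 24499 ± 1911 after myelin and 16337 ± 1004 untreated (SD, n = 5 each). Ctsl rose by 0.36 ± 0.11, and its call was lost in 13 of 22 other settings. Of 26 hydrolases and their helpers 12 rose and 0 fell (median 0.35). They included Naglu (1.09 ± 0.11), which degrades heparan sulfate, Tpp1 (0.68 ± 0.16), a peptidase, and Gla (0.51 ± 0.11), which splits off galactose from glycolipids. Tpp1 (0.20) and Gla (0.33) were not called with the coding share as a covariate. Galc (0.38 ± 0.13), Asah1 (0.34 ± 0.17) and Arsa (0.06 ± 0.09), which act on galactosylceramide, ceramide and sulfatide, were not called. The cholesterol carriers Npc1 (0.27 ± 0.10) and Npc2 (0.09 ± 0.08) were not called either.

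Of 23 membrane and nutrient-sensing genes 9 rose and 0 fell (median 0.26). Lamp1, an abundant membrane glycoprotein, had 450, 946, 636, 452 and 430 scaled TPM after myelin, against 326, 235, 250, 238 and 334 untreated. The groups did not overlap and replicate 2 was highest (1.02 ± 0.20, limma adjusted p = 0.00698). Fnip2 (0.84 ± 0.13), a folliculin partner, and the GTPase Rragc (0.74 ± 0.14), both of amino acid sensing by mTORC1, rose, as did Cd68 (0.62 ± 0.09) and the calcium channel Mcoln1 (0.60 ± 0.12). The transcription factors of the pathway, Tfeb (0.14 ± 0.11), Tfe3 (0.09 ± 0.09) and Mitf (-0.19 ± 0.08), were not called. With the coding share as a covariate 5 members of this list rose. The 4 lysosomal lists lost most of their calls when all 47 libraries shared 1 unweighted spread, to 2 pump, 0 cathepsin, 3 hydrolase and 3 membrane genes.

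TFEB and its relatives are known to bind an E-box that lies in the promoters of many lysosomal genes. The core of this element, TCACGTG, was searched on both strands in the 250 bases before each RefSeq gene start (GRCm38.p6), where 3.58% of 27025 genes held it. Of the 63 lysosomal members with a sequence, 10 of 26 that rose and 4 of 37 that were not called held it. The stretches of 6 members that rose are shown with each match, on either strand, in capitals, because they differ in the number of matches and in their distance from the start. A match reading TCACGTGA counts on both strands.
Lamp1: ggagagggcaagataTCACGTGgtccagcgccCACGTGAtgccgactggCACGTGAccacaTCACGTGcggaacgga
Gla: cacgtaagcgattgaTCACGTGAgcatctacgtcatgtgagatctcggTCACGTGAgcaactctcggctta
Naglu: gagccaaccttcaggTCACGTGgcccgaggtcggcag
Rragc: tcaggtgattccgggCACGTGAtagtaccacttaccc
Atp6v1a: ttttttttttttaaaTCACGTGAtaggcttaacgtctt
Ctsd: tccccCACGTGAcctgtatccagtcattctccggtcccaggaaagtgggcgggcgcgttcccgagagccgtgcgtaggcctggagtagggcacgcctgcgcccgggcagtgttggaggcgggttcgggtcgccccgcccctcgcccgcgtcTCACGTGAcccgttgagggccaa
The Lamp1 stretch (chr8:13159084-13159160, plus strand) held 4 matches, all within 62 bases of the start. That of Gla (chrX:134601178-134601248, minus strand) held 2 matches, as did that of Ctsd (chr7:142387904-142388077, minus strand). Naglu (chr11:101070005-101070041, plus), Rragc (chr4:123917306-123917342, plus) and Atp6v1a (chr16:44139369-44139406, minus) held 1 each, at 74, 112 and 132 bases before the start. A match describes the letters only and shows no binding.

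Some genes of lipid storage and uptake rose. Fabp4, a fatty acid carrier of macrophages and adipocytes, had 189, 192, 170, 112 and 140 scaled TPM after myelin, against 85.2, 88.7, 84.0, 60.6 and 71.7 untreated. It had the largest fold change of the droplet list (1.02 ± 0.15, limma adjusted p = 0.00161), with no overlap. Plin2, a droplet coat protein, averaged 1669 ± 88.7 after myelin and 1234 ± 102 untreated (SD, n = 5 each; 0.44 ± 0.08), and Soat1, which esterifies cholesterol, 209 ± 13.4 and 152 ± 21.8 in the same order (0.47 ± 0.10). Of 17 tested members 7 rose and 1 fell (median 0.27), against 4 and 0 with the coding share as a covariate. The one that fell was Lipe (-0.54 ± 0.11), the hormone-sensitive lipase. Among 12 uptake genes 5 rose and 1 fell. Lpl, the lipoprotein lipase, rose by 0.61 ± 0.09, the scavenger receptor Cd36 by 0.52 ± 0.14 and the lysosomal acid lipase Lipa by 0.39 ± 0.08. Cd36 lost its call without E4 myelin replicate 3 or 4 or E4 untreated replicate 3, and with the coding share as a covariate (0.14). The uptake count was 3 with that covariate and without E4 myelin replicate 3 or E4 untreated replicate 3. Of 14 genes of PPAR and fatty acid oxidation 2 rose, Cd36 and Pparg (0.41 ± 0.12), of which Pparg was not called on leaving out any of 8 of the 10 libraries, namely any myelin library or E4 untreated replicate 1, 2 or 3. The count was 0 without E4 myelin replicate 3 or 4 or E4 untreated replicate 3. Cpt1a, the entry point of fatty acids into mitochondria, was not called (0.38 ± 0.13).

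**Figure D3:**
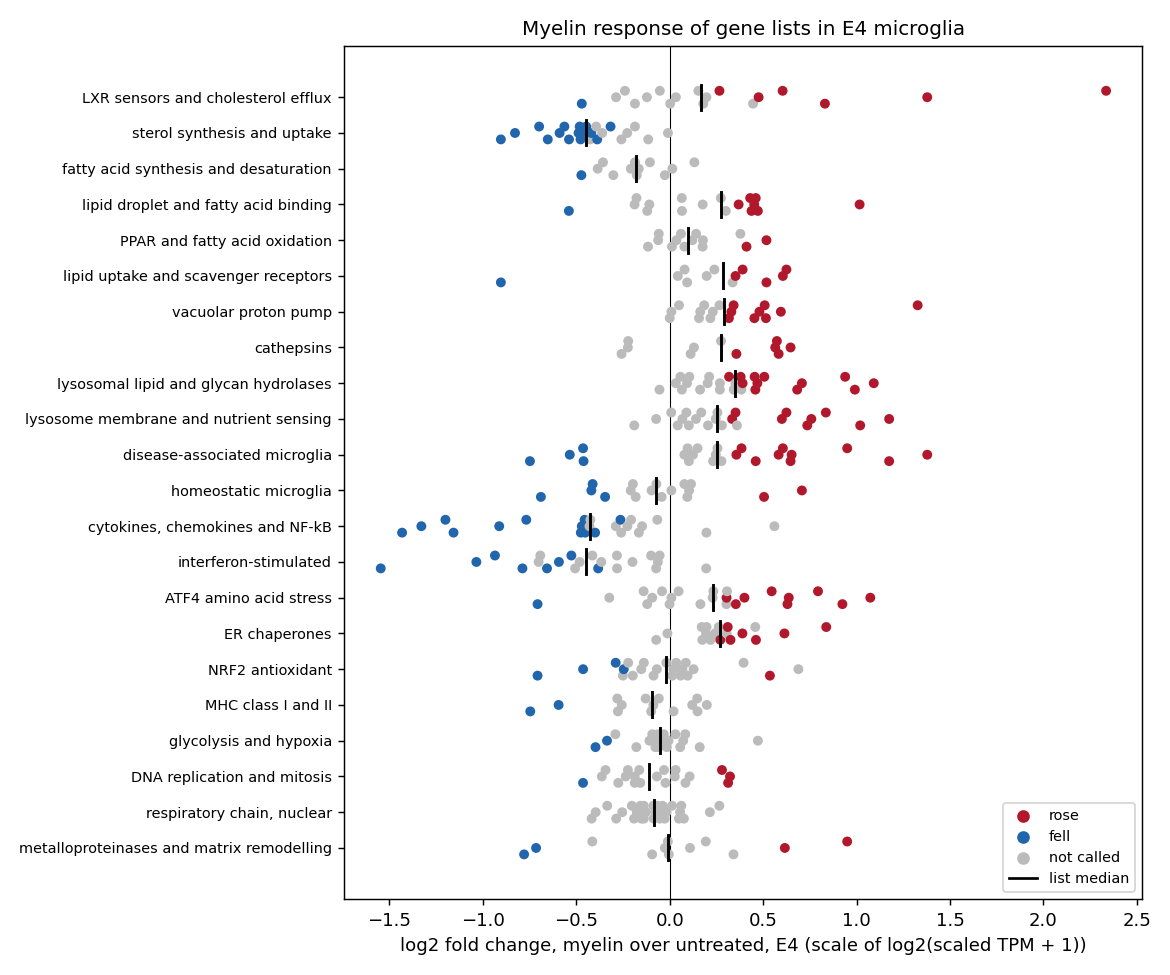
Log2 fold change (myelin over untreated, E4) of each tested member of 22 gene lists; red points rose, blue points fell, grey points were not called and the black bar is the list median. Sterol, cytokine and interferon lists have medians near -0.45 and no member that rose, while the lysosomal lists have positive medians and no member that fell.

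Genes of the disease-associated state of microglia, which appears around plaques and damaged myelin, went in both directions. Of 23 tested members 10 rose, counting Apoe with the limit given above, and 4 fell (median 0.26). Apart from Apoe, Gpnmb and the cathepsins, Lgals3 (galectin 3), with 5017 ± 717 scaled TPM after myelin and 3184 ± 402 untreated (SD, n = 5 each; 0.65 ± 0.12), rose, as did Lpl and Cst7 (0.38 ± 0.09). Ccl6 (-0.75 ± 0.10), Cd52 (-0.53 ± 0.12), the phagocytic receptor Axl (-0.46 ± 0.11) and Csf1 (-0.46 ± 0.10) fell. Timp2, a metalloproteinase inhibitor at 129, 400, 225, 149 and 137 after myelin and 121, 89.7, 81.2, 90.5 and 108 untreated, rose (0.95 ± 0.26), but was not called without E4 myelin replicate 3 or E4 untreated replicate 2 or 3. The lipid receptor Trem2 (0.08 ± 0.13) and Spp1 (0.28 ± 0.10) were not called, though Trem2 was called as a rise in 1 of 22 other settings. Of the 17 tested genes of the homeostatic state 2 rose and 4 fell, the second count being 2 without E4 myelin replicate 1, 2 or 3 or E4 untreated replicate 3. Tmem119, which marks resident microglia, had 34.0, 28.7, 34.2, 34.3 and 39.0 scaled TPM after myelin, against 48.1, 61.0, 60.5, 56.7 and 51.2 untreated. Every myelin library was below every untreated one (-0.69 ± 0.10, limma adjusted p = 0.00130). Cx3cr1, the fractalkine receptor, fell by 0.42 on the log2 scale, and Mertk, a receptor for dying cells, rose by 0.50 ± 0.11. Mertk lost its call with the coding share as a covariate, and both genes lost theirs with all 47 libraries and no weights. Csf1r fell too (-0.35 ± 0.10), but the call was lost on leaving out any of 7 single libraries. P2ry12 lay under the level filter at 4.41 ± 1.59 scaled TPM after myelin and 4.42 ± 0.969 untreated (SD, n = 5 each). The myelin transcript Mbp was at 25.5 ± 0.467 after myelin and 24.0 ± 2.50 untreated (SD, n = 5 each; 0.09 ± 0.08, not called).

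Cytokines and chemokines fell. Il1b, the proform of interleukin 1 beta, had 288, 151, 178, 309 and 244 scaled TPM after myelin, against 452, 661, 667, 468 and 633 untreated. Ccl2, which draws monocytes, had 72.4, 87.0, 66.8, 64.9 and 70.8 after myelin, against 166, 158, 177, 166 and 168 untreated. Both were lower in each myelin library (-1.33 ± 0.19 and -1.20 ± 0.08, limma adjusted p = 0.00139 and 8.19e-06). Lcn2, an iron-binding acute phase protein, averaged 375 ± 142 after myelin and 972 ± 143 untreated, and Ccl7, a relative of Ccl2, 21.4 ± 4.69 after myelin and 48.3 ± 2.11 untreated (SD, n = 5 each). The neutrophil attractants Cxcl1 (-0.91 ± 0.12) and Cxcl2 (-0.77 ± 0.13) fell, as did Ccl3 (-0.45 ± 0.10), Nlrp3 (-0.47 ± 0.14) of the inflammasome and the NF-kB inhibitor Nfkbia (-0.40 ± 0.10). Of 23 tested members 12 fell and 0 rose (median -0.42), and the count was 8 without E4 myelin replicate 3 or E4 untreated replicate 2 or 3. Tnf (-0.07 ± 0.14) and Il1a (0.56 ± 0.21, limma adjusted p = 0.0943) were not called. Outside the list, further genes of innate immune cells were among the largest falls: Chil1 (-1.52 ± 0.24), a chitinase-like protein, the formyl peptide receptor Fpr1 (-1.25 ± 0.23) and the lectins Clec4n (-1.20 ± 0.14) and Clec4a2 (-1.10 ± 0.10). Fxyd2 (-1.20 ± 0.15), a sodium pump regulator, and Crct1 (-1.07 ± 0.17) completed the leading falls. Markers of other cell types lay beside these: of 9 tested fibroblast and pericyte markers 2 fell (Col1a2 at -0.48 ± 0.15 and Tagln at -0.42 ± 0.11), of 15 astrocyte markers 1 (Glul at -0.53 ± 0.09) and of 3 border macrophage markers 1 (Pf4 at -0.50 ± 0.12), and 0 rose. An unadjusted limma p under 0.05, in either direction, was reached by 7 fibroblast, 3 astrocyte and 1 border macrophage markers. The share of all genes tested at that level was not taken, so such counts, here and for other lists, show no excess. The list medians were -0.33, -0.10 and -0.25 in that order. The count of fibroblast markers that fell was 0 without E4 myelin replicate 3 or 5 or E4 untreated replicate 2 or 3. The same count was 6 without E4 untreated replicate 5, and 1 without any of the others. It was 0 with the coding share as a covariate, while 3 astrocyte and 0 border macrophage markers fell. Their part in the fall of chemokines was not tested.

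Among interferon-stimulated genes, too, those that were called fell. Cxcl10, a chemokine for T cells, had 22.6, 14.4, 12, 19.5 and 14.8 scaled TPM after myelin, against 44.0, 57.3, 45.8, 56.5 and 45 untreated. With a log2 fold change of -1.55 ± 0.15 (limma adjusted p = 1.69e-04) it was the largest fall of all genes tested, with no overlap. Ifi27l2a (-1.03 ± 0.18) and the guanylate-binding protein Gbp2 (-0.93 ± 0.16) also fell without overlap. Irf7 (-0.79 ± 0.23), Isg15 (-0.66 ± 0.19) and Zbp1 (-0.59 ± 0.17) fell with groups that overlapped. Rtp4 (-0.70 ± 0.24) and Ifit1 (-0.51 ± 0.22) were not called. Of 22 tested members 8 fell and 0 rose (median -0.45). This count was 3 without any of E4 myelin replicates 1, 2 and 3 or E4 untreated replicates 2 and 3, 5 without E4 myelin replicate 4 or E4 untreated replicate 1, and 4 with libraries scaled to the coding total alone. Ifi27l2a, Isg15 and Zbp1 were not called with the coding share as a covariate. With all 47 libraries and no weights the same genes and Irf7 were not called.

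Elements known to bind NF-kB and interferon-activated factors were searched in the same windows, and 4 stretches from genes that fell show how close to the start they lie. The NF-kB letters GGGNNTTTCC were held by 1.65% of all genes and by 4 of 9 list members that fell and 2 of 7 that were not called. The interferon-stimulated response element TTTCNNTTTC was held by 3.46% of all genes, by 3 of 5 list members that fell and by 6 of 11 that were not called.
Cxcl1: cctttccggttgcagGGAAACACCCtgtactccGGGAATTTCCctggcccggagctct
Cxcl2: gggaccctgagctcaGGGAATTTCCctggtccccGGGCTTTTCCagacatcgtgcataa
Cxcl10: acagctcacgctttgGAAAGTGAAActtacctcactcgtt
Gbp2: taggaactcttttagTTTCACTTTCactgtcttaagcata
Cxcl1 (chr5:90891141-90891198, plus strand) and Cxcl2 (chr5:90903787-90903845, plus) held 2 NF-kB matches each, all within 97 bases of the start. The interferon matches lay 59 bases before the start of Gbp2 (chr3:142620589-142620628, plus) and 213 before that of Cxcl10 (chr5:92349078-92349117, minus). For the sterol list, the SREBP letters TCACNCCAC were found in 0 of 10 members that fell and 1 of 7 that were not called, against 1.22% of all genes.

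Genes of the amino acid stress response rose in part. Asns, which makes asparagine, had 71.7, 64.5, 65.6, 60.0 and 59.0 scaled TPM after myelin, against 42.4, 34.2, 38.7, 36.3 and 31.8 untreated. The pseudokinase Trib3 had 10.7, 13.9, 11.7, 9.61 and 10.0 after myelin, against 5.87, 4.95, 6.08, 4.63 and 5.44 untreated. Both groups were fully apart (0.79 ± 0.09 and 0.92 ± 0.12, limma adjusted p = 3.77e-04 and 7.47e-04). The leucine carrier Slc7a5 (1.07 ± 0.12), the mitochondrial folate enzyme Mthfd2 (0.64 ± 0.10), the C/EBP partner Cebpg (0.63 ± 0.14) and the glycyl-tRNA synthetase Gars (0.55 ± 0.10) rose as well. Of 23 tested members 9 rose and 1 fell (median 0.23). The one that fell was the cystine carrier Slc7a11, with 15.3 ± 1.81 scaled TPM after myelin and 25.9 ± 4.92 untreated (SD, n = 5 each; -0.71 ± 0.13). Atf4 itself (0.01 ± 0.08) was not called. The C/EBP-ATF letters TGATGNAA were held by 3.91% of all genes, by 4 of 8 members that moved and by 2 of 12 that were not called, and are shown for Asns, described first, and for the member that fell.
Asns: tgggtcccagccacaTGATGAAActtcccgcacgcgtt
Slc7a11: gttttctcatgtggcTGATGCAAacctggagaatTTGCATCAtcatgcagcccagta
The match in Asns (chr6:7693210-7693247, minus strand) began 23 bases before the start. Slc7a11 (chr3:50443638-50443694, minus) held 2 matches.

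Of 18 chaperones of the endoplasmic reticulum 7 rose and 0 fell (median 0.27). Edem1 (0.84 ± 0.13), which hands misfolded glycoproteins to degradation, Sdf2l1 (0.61 ± 0.09), the transcription factor Xbp1 (0.46 ± 0.08) and the chaperone Hspa5 (0.39 ± 0.09) were among them. With the coding share as a covariate the count was 3. Fewer members were called in the remaining lists. Of 23 antioxidant genes 1 rose, the glutathione reductase Gsr (0.54 ± 0.12), and 4 fell, Slc7a11, Gpx1 (-0.46 ± 0.12), Tkt (-0.29 ± 0.08) and Pgd (-0.25 ± 0.07), a count of 1 without E4 myelin replicate 3 or E4 untreated replicate 2 or 3 and of 2 without E4 myelin replicate 1, 2 or 4. Of 14 antigen presentation genes H2-Ab1 (-0.75 ± 0.15) and H2-Q4 (-0.59 ± 0.13) fell, the second from a family of close copies whose reads may be split. Of 20 glycolysis and hypoxia genes Egln3 (-0.40 ± 0.09) and Gpi1 (-0.34 ± 0.10) fell. Gpi1 lost its call on leaving out any of 8 of the 10 libraries, and the count was 0 without E4 untreated replicate 3. Of 20 replication genes Mcm2, Pcna and Mcm6 rose by 0.28 to 0.32 and Hmgb2 fell (-0.46 ± 0.12). The count that rose was 1 without E4 myelin replicate 3 or E4 untreated replicate 3, and the count that fell was 0 without E4 myelin replicate 3 or 5 or E4 untreated replicate 2 or 3 and 2 without E4 untreated replicate 5. With the coding share as a covariate 1 rose and 0 fell, and of the antigen presentation genes 0 fell. Gsr, Gpx1, Tkt, Pgd, Egln3 and Gpi1 also lost their calls with this covariate. Of 12 genes of matrix remodelling Mmp12 (0.62 ± 0.09) and Timp2 rose, and Mmp3 (-0.78 ± 0.16) and Timp1 (-0.71 ± 0.15) fell. Without E4 myelin replicate 3 or E4 untreated replicate 2 or 3 the count that rose was 1. Of 30 nuclear genes of the respiratory chain limma called 0 (median -0.09), with 3 at an unadjusted p under 0.05.

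Several of the largest rises belonged to no list. Il18bp, a secreted inhibitor of interleukin 18, had 17.2, 18.4, 22.1, 16.1 and 22.6 scaled TPM after myelin, against 8.83, 8.04, 6.29, 6.62 and 9 untreated (1.21 ± 0.13, limma adjusted p = 2.56e-04). The groups were well apart. Tmed2 (1.33 ± 0.19) of vesicle transport, the kinase Cdk18 (1.31 ± 0.22), the potassium channel Kcna3 (1.26 ± 0.22), the RNA-binding Hnrnpab (1.26 ± 0.18), the co-chaperone Bag1 (1.22 ± 0.21), Taf10 (1.21 ± 0.32) of basal transcription and the deubiquitinase Usp1 (1.17 ± 0.21) rose as well. Cdk18 and Kcna3 were not called with the coding share as a covariate. Taf10 had 89.2, 309, 148, 86.6 and 95.3 scaled TPM after myelin, against 85.2, 45.6, 38.6, 46.8 and 69.3 untreated, and was not called without E4 myelin replicate 3 or E4 untreated replicate 2 or 3. E4 myelin replicate 2 was the highest of the 10 libraries in Apoe, Hnrnpab, Bag1, Taf10, Lamp1 and Timp2 alike. Without that library the log2 fold changes were 1.19 for Apoe, 1.14 for Hnrnpab, 1.06 for Bag1, 0.89 for Taf10, 0.83 for Lamp1 and 0.68 for Timp2, each with its call kept.

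The response was set beside those of the other genotypes in a fit of 38 libraries and 9172 genes, to ask where it differed. The genotypes have no control library in common. Of the 1135 genes called in E4 that were tested there, 96.0% had the same sign in E3, 80.7% in KO and 64.1% in WT, while of all genes tested the shares were 76.5%, 67.2% and 47.3%. The genes that rose had a median of 0.52 in E4, 0.42 in E3, 0.13 in KO and 0.22 in WT. Those that fell had a median of -0.46 in E4, -0.32 in E3, -0.16 in KO and -0.03 in WT. Since the genes were chosen on E4, a larger E4 median is no finding. The coding share averaged 15.6 ± 6.04% after myelin and 13.6 ± 2.33% untreated in E3 (SD, n = 4 each). It was 23.4 ± 1.59% and 20.8 ± 3.39% in KO, and 19.2 ± 4.43% and 23.2 ± 2.54% in WT, in that order (SD, n = 5 each). Its mean was thus higher after myelin in E4, E3 and KO and lower in WT.

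For the difference between the E4 and E3 responses, 448 of 9172 genes had an unadjusted limma p under 0.05. That is about the share this threshold passes when nothing differs. After adjustment limma called 1 difference (0.0109% of genes). It was Asns, which averaged 64.2 ± 5.09 scaled TPM after myelin and 36.7 ± 4.08 untreated in E4 (SD, n = 5 each), and 67.5 ± 8.05 and 62.4 ± 3.95 in E3 in the same order (SD, n = 4 each). The difference of responses was 0.69 ± 0.12 (limma adjusted p = 0.0228), and the untreated E4 libraries, at 31.8 to 42.4, lay below the untreated E3 libraries, at 56.7 to 65.6, a gap that was not tested. The count was 0 with libraries scaled to the coding total alone, without a level filter, in both unweighted fits that added Het libraries, and on leaving out any of 11 of the 18 E4 and E3 libraries, and it was 2 without E4 myelin replicate 4. Abcg1 differed by 0.21 ± 0.18, Gpnmb by 0.41 ± 0.13, Psap by 0.16 ± 0.13, Fdps by -0.07 ± 0.11 and Cxcl10 by -0.46 ± 0.30 between E4 and E3. These misses do not show that the responses were alike.

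The E4 and WT responses differed in 619 genes (6.75%), 337 with a higher and 282 with a lower value in E4, and 327 of them were also called in E4. Abcg1 had 7.41 ± 1.32 scaled TPM after myelin and 5.94 ± 0.414 untreated in WT (SD, n = 5 each), and its response was larger in E4 by 2.07 ± 0.17 (limma adjusted p = 2.58e-10). Larger E4 responses were also called for Atp6v0d2 (1.43 ± 0.17), Gpnmb (1.30 ± 0.13), Apoe (1.08 ± 0.25), Psap (0.93 ± 0.12), Mylip (0.77 ± 0.13) and Asns (0.73 ± 0.12). Mouse Apoe is replaced in E4 cells, so the Apoe values of E4 and WT may not stand for the same transcript. Lower values were called for Cxcl10 (-1.20 ± 0.28), Fdps (-0.71 ± 0.11) and Ccl2 (-0.63 ± 0.18). Some genes that rose in E4 had no called difference from WT, which does not show equal responses. Cdk18, Naglu and Rragc had log2 fold changes of 1.07, 1.15 and 0.92 in WT, and the differences of 0.24 ± 0.33, -0.06 ± 0.30 and -0.18 ± 0.28 were not called. The next 4 called differences by size after Abcg1 belonged to H2afj (-1.75 ± 0.41), Hspb1 (-1.68 ± 0.37), Gm28592 (-1.63 ± 0.35) and Phlda3 (-1.56 ± 0.39). Their log2 fold changes in WT were 1.36, 1.32, 0.75 and 1.46, while in E4 the lincRNA Gm28592 fell (-0.87 ± 0.13) and the other 3 were not called (-0.39, -0.36 and -0.10). The count was 109 with the coding share as a covariate. That share moved in opposite directions in E4 and WT, and its part in the 619 differences was not tested further. Without E4 untreated replicate 1, WT myelin replicate 1 and WT untreated replicate 5 the count was 328, 342 and 364 in that order. It was 376 without E4 myelin replicate 4 and 384 without WT untreated replicate 4.

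The E4 and KO responses differed in 133 genes (1.45%), 68 higher and 65 lower in E4, of which 105 were called in E4. The count was 86 without E4 myelin replicate 3 and 87 without KO untreated replicate 1. The largest were Abcg1 (1.99 ± 0.17), Igfbp2 (1.80 ± 0.37), Cxcl10 (-1.71 ± 0.28), Prl2c3 (-1.67 ± 0.40) and Gclm (1.44 ± 0.38). Abcg1 had 15.5 ± 2.52 scaled TPM after myelin and 11.8 ± 0.559 untreated in KO (SD, n = 5 each). Cxcl10 held 2.95 ± 0.712 after myelin and 2.65 ± 1.32 untreated in KO. Both KO means lay under the 5 scaled TPM of the level filter, which takes the mean over all libraries fitted. A fall in KO would therefore be understated. Igfbp2, which binds insulin-like growth factors, rose in E4 (0.92 ± 0.27, lost without E4 myelin replicate 2 or 3 or E4 untreated replicate 2 or 3), while Gclm of glutathione synthesis was not called in E4 (0.69 ± 0.28). Prl2c3 belongs to a family of near-identical genes and its level is uncertain. Gpnmb (1.04 ± 0.13), Atp6v0d2 (1.08 ± 0.17), Psap (0.79 ± 0.12), Fdps (-0.85 ± 0.11), Mylip (0.83 ± 0.13), Apoe (1.38 ± 0.25) and Ccl2 (-1.26 ± 0.18) also differed. What the Apoe reads of E4 cells stand for was not tested. Asns (0.29 ± 0.12) and Lcn2 (-0.04 ± 0.29) did not pass the test, and Lcn2 had a log2 fold change of -1.39 in KO. Of the 23 sterol genes, 9 had a called lower response in E4 than in KO and 6 than in WT, and 0 differed from E3.

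**Figure D4:**
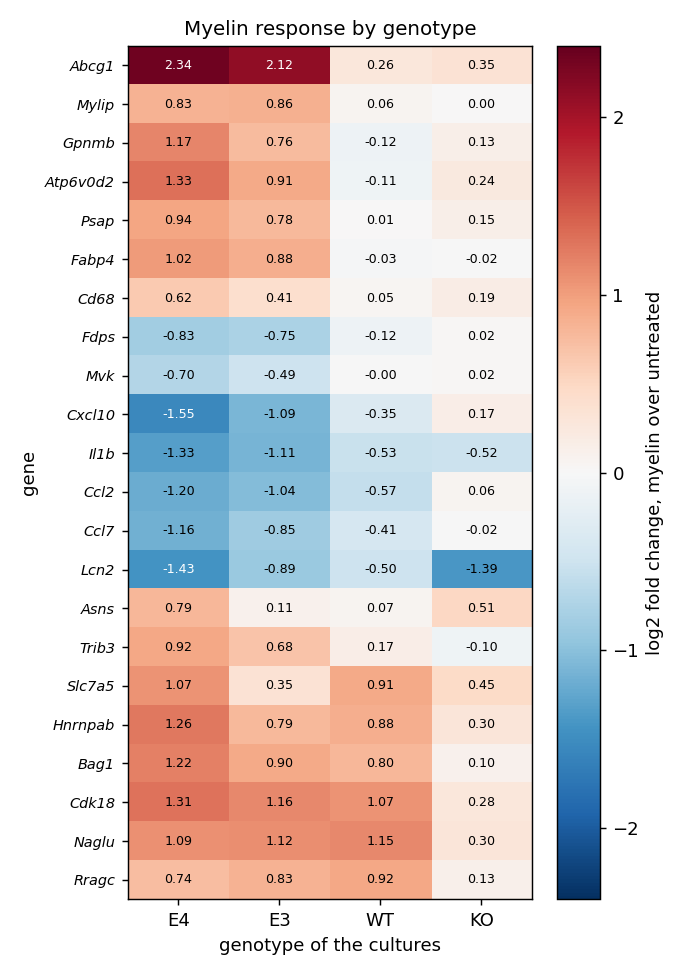
Log2 fold change (myelin over untreated) of 22 genes in E4, E3, WT and KO cultures, with E4 on the left; red is higher and blue lower after myelin. Abcg1, Gpnmb, Psap and Fdps have the same sign in E4 and E3 and lie nearer to 0 in WT and KO, while Cdk18, Naglu and Rragc are also positive in WT.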

How the data were processed

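Per the labels' protocols, libraries were made from polyadenylated RNA with a SMARTer kit for low input. The values the authors deposited are TPM of 53697 genes, with columns that total 1000000 but for rounding. The submitters' processing notes name mm10, limma 3.40.6 and Salmon 0.13.1 without their roles, and the annotation release is not given in the sources used here. Read depth cannot be recovered from TPM and is unknown here.

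Columns were rescaled to the total of 21832 nuclear protein-coding genes, then by a trimmed mean of log ratios over 13996 genes above 0 in every library (trimming, at either end, 30% by ratio and 5% by level). Coding and lincRNA genes with a mean log2 level of at least that of 5 scaled TPM over the 10 E4 libraries were tested. They were 9303 coding and 107 lincRNA genes. The test was limma 3.58.1 (R 4.3.3, R package data.table at version 1.17.8) on log2(scaled TPM + 1) with a trend, no weights and the E4 libraries alone. Tests were two-sided, and calls needed a Benjamini-Hochberg adjusted p under 0.05. Low genes are understated on this scale. Differences of responses came from 1 such fit of 38 libraries without Het, since 4 Het libraries hold under 6% coding content. Weights per library were not used and are an alternative.

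Named genes are the 12 largest called rises and the 12 largest called falls among coding genes without overlap and with at least 10 scaled TPM in the higher group, up to 6 called members of each of 30 lists, Apoe, Abca1, Abcg1, Trem2, Tmem119, P2ry12, Il1b and Mbp, and the 5 largest called differences per pair of genotypes. Members that were not called, and Pltp, Mcoln1, Gars, Cst7, Cd52, Axl, Csf1, Insig1, Ccl3, Nlrp3 and Nfkbia, were added after their values were seen, as were the motifs. Some genes that meet the rule are not reported here. The members and lists were chosen with earlier results of these data known. Positions come from GENCODE vM21 (mm10) for all 9410 genes by identifier without version, 9024 with the same version, and sequences from RefSeq (GRCm38.p6). Replicates of a group correlated at 0.969 to 0.991. Alternatives were other scalings, pseudocounts, level filters, weights, libraries, a replicate block, single libraries left out and, added after the data were seen, the coding share as a covariate.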

Additional observations from a re-analysis of the deposited data

Results flagged for a closer look

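Among the E4 libraries of the genes named above, 18 of 216 groups of 5 held a library whose gap to its nearest neighbour took most of the group's range. Chance alone gives such a gap in about 1 in 20 groups. E4 myelin replicate 4 was the low library in Abcg1 (35.1 scaled TPM), Gpnmb (2364), Gpx1 (939), Tkt (173), Ctsd (21249), Egln3 (9.23), Gpi1 (212) and Trem2 (959). E4 untreated replicate 1 was low in Abca1 (40.1), Atp6v1b2 (154), Psap (1527) and Tpp1 (151) and high in Prl2c3 (12.4). E4 myelin replicate 2 was low in Ccl6 (29.3) and P2ry12 (1.74). Chil1 was high in E4 myelin replicate 5 (109), Ctsd in E4 untreated replicate 5 (18104) and Ccl7 in E4 untreated replicate 4 (52.0).

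The response of E4 differed from that of another genotype by the limma test of the difference itself for these genes, in log2 units. Against E3 it was Asns (0.69). Against WT the differences were 2.07 for Abcg1, 1.43 for Atp6v0d2, 1.30 for Gpnmb, 1.08 for Apoe, 0.93 for Psap, 0.77 for Mylip, 0.73 for Asns, -0.63 for Ccl2, -0.71 for Fdps, -1.20 for Cxcl10, -1.56 for Phlda3, -1.63 for Gm28592, -1.68 for Hspb1 and -1.75 for H2afj. Against KO they were 1.99 for Abcg1, 1.80 for Igfbp2, 1.44 for Gclm, 1.38 for Apoe, 1.08 for Atp6v0d2, 1.04 for Gpnmb, 0.83 for Mylip, 0.79 for Psap, -0.85 for Fdps, -1.26 for Ccl2, -1.67 for Prl2c3 and -1.71 for Cxcl10. The Apoe differences may not compare the same transcript, since mouse Apoe is replaced in E4 cells.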

How the results depend on the processing

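The number of genes called, for the E4 response (1190) and its differences from E3 (1), WT (619) and KO (133), was 589, 0, 314 and 85 without a level filter. It was 2350, 103, 1007 and 617 with library weights, 309, 0, 10 and 1 with all 47 libraries and no weights, and 2315, 89, 971 and 612 with all 47 and weights. With the coding share as a covariate, an alternative chosen after seeing the data, it was 728, 73, 109 and 233. Scaling to the coding total alone and adding the Het libraries above 6% coding content each left 0 genes for E4 against E3. Leaving out single libraries gave 570 to 1435 genes for E4, 0 to 2 against E3, 328 to 905 against WT and 86 to 173 against KO, and a coding share difference of 5.05 to 7.45 percentage points. With the replicate block the counts were 1552, 1, 934 and 71, and 48.71% of the genes called in E4 were higher after myelin, against 56.05% without the block. Deviations of E4 libraries with the same number correlated at -0.13 to 0.55, and the pair numbered 4 alone correlated best with its own number. So few correlations cannot settle whether the numbers pair the libraries. The coding total alone called 1010 genes in E4, 51.68% of them higher. Of the E4 fold changes of single genes, 3 changed sign, all of genes not called: H2afj was 0.23 with the covariate, and Phlda3 was 0.017 with weights and 0.013 with all 47 libraries and weights. The cause of these shifts was not tested. Depth is unknown, and low genes are compressed by the pseudocount.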
